A study of Arabidopsis thaliana with 18 samples.

Results

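Dry seeds of the mpk7_ko3 line were compared with dry seeds of the Arabidopsis thaliana accession Col-0, the wild type of the study, across all genes. The comparison used every library of these groups, 3 of mpk7_ko3 and 3 of Col-0, which are 6 of the 18 RNA-seq libraries of the study. Both groups were freshly harvested dry seeds in the Col-0 background, and mpk7_ko3 is labelled a knockout of MPK7. The labels used here do not say where in the gene its lesion lies or whether replicate libraries came from separate plants or harvests, so p-values measure the spread between libraries, which may be technical. The other 12 libraries were dry seeds of mkk3-1, labelled a knockout of MKK3, and seeds of all 3 genotypes imbibed for 6 h. They served here to estimate the spread and for comparisons with the dry mpk7_ko3 result.

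A mitogen-activated protein kinase (MAPK) cascade passes a signal through kinases that phosphorylate each other in series, and MPK7 is one of the group C MAPKs that act downstream of the MAPK kinase MKK3. In seeds, MKK3 and its MAPKs are known for a part in dormancy, the block to germination of a fresh seed. A dry seed carries stored mRNA made during maturation, including mRNA for storage proteins, protective proteins and the translation machinery, which is drawn on when the seed takes up water.

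The 6 dry libraries held 18249333 to 20461777 counts. Values are given as CPM, counts scaled to a common library total with the trimmed mean of M-values (TMM), so that 1 count was worth 0.0593 to 0.0689 CPM. Seed transcripts were abundant in both groups, with CRA1, a 12S storage globulin, at 29439 ± 1898 CPM (SD, n = 3) in Col-0 and 26335 ± 5990 CPM (SD, n = 3) in mpk7_ko3. On the second principal component 1 library stood apart. Dry mpk7_ko3 replicate 3 lay at -43.22, while the other 5 libraries lay between -12.11 and 27.03. That component held 23.1% of the variance of the 6 libraries. The first component, with 31.5%, did not separate the groups. On it mpk7_ko3 replicate 3 lay at 24.05, its sister libraries at -37.7 and -30.12, and Col-0 at -3.423, 35.94 and 11.26. The CRA1 level of mpk7_ko3 replicate 3 was 19572 CPM and those of the other 5 libraries were 27370 to 31099 CPM. The results that rest on mpk7_ko3 replicate 3 are therefore given with and without it. Col-0 replicate 2 stood apart in composition. Entries annotated as ribosomal RNA took 1.41% of its counts, against 0.501 to 0.896% in the other 5 libraries. Genes of the mitochondrial genome took 0.156% against 0.0537 to 0.0843%, and those of the plastid genome 0.0275% against 0.00872 to 0.0152%. Counts of calls without Col-0 replicate 2 are given below as well.

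Of 32833 genes in the table, 17758 had enough counts to be tested, and 491 of them (2.76%) differed between dry mpk7_ko3 and dry Col-0 at an adjusted p below 0.05 in edgeR's quasi-likelihood test with Benjamini-Hochberg adjustment. Lower transcripts outnumbered higher ones in mpk7_ko3, with 375 genes that fell (2.11% of those tested) and 116 that rose (0.653%). Counts of list members given below are to be read beside these shares. The changes were small, with a median log2 fold change of 0.44 among the rises and -0.53 among the falls, against 1.75e-05 over all genes tested. At least a 2-fold change was seen for 57 genes, 10 higher and 47 lower. The library values of the groups did not overlap for 481 of the 491 genes, and they did not overlap for 17.8% of all genes tested. Without dry mpk7_ko3 replicate 3, 330 genes passed, of which 254 were among the 491. Without Col-0 replicate 2, 146 passed, of which 139 were among the 491 and 92.5% were lower in mpk7_ko3. A fit of only the 6 libraries, with its own estimate of the spread, called 73 genes, of which 72 were among the 491. The share of falls among the calls was 76.4%, and it was 64.3% once a trend with gene length and GC content was removed and 65.7% with DESeq2. In whole seeds, fewer cells with a transcript and less of it per cell cannot be told apart.

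**Figure D1:**
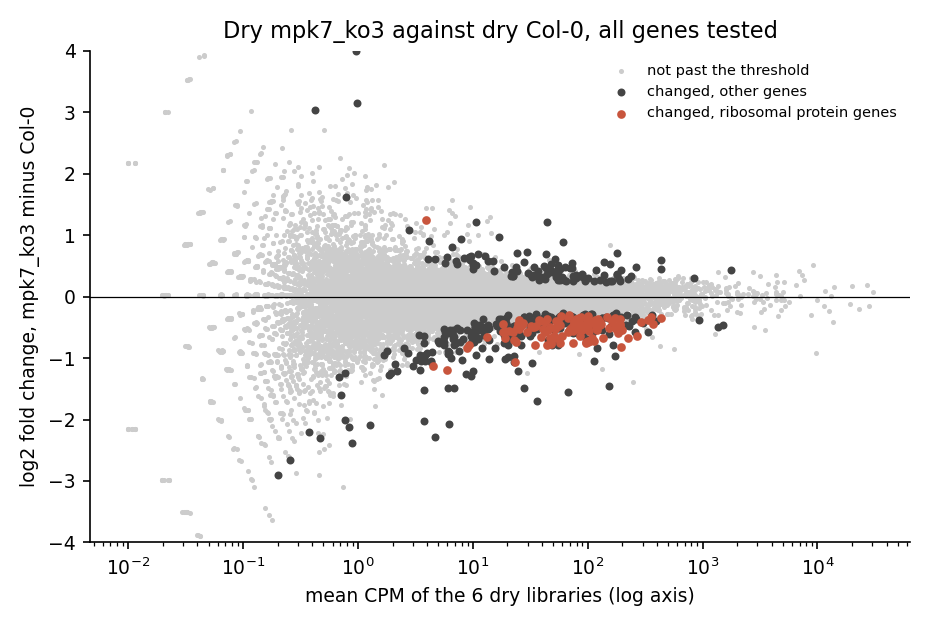
Mean CPM of the 6 dry libraries (horizontal, log axis) against the log2 fold change of dry mpk7_ko3 over dry Col-0 (vertical) for each gene tested. Dark points are changed genes, red points are changed genes whose product names a ribosomal protein, and pale points did not pass, while 29 genes, 5 of them changed, lie beyond the plotted range of 4 log2 units. Nearly all red points lie below zero, at middle and high abundance.

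MPK7 itself was the first check of the labels. The gene lies on the minus strand at chr2:7907774-7910040 (TAIR10). Its level was 44.2, 38.7 and 40.9 CPM in the Col-0 libraries and 15.2, 14.3 and 14.7 CPM in the mpk7_ko3 libraries. The groups stood far apart and the mutant libraries lay close together, with a log2 fold change of -1.49 ± 0.10 (SE; adjusted p = 1.32e-08). Between 214 and 246 counts per mutant library still fell on the gene. Whether those reads come from a shortened transcript cannot be told from counts per gene.

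The other genes of the MKK3 module did not pass the test, and MPK7 was the 1 of 9 measured module genes that fell. MKK3, the kinase upstream, was at 18.6, 17.3 and 16.2 CPM in Col-0 and at 20.2, 21.4 and 21.2 CPM in mpk7_ko3. Its groups did not overlap, yet the log2 fold change of 0.27 ± 0.10 (SE) had an adjusted p of 0.155. The remaining group C kinases had adjusted p-values of 0.774 for MPK1, 0.968 for MPK2 and 0.913 for MPK14, with log2 fold changes of 0.11, 0.03 and -0.10, and their library values overlapped. Without mpk7_ko3 replicate 3 these became -0.10, -0.20 and -0.39, none past the threshold. Per kilobase of merged exons, MPK7 was the most abundant of the 4 kinases in dry Col-0. It stood at 22.4 ± 1.5 CPM per kilobase (SD, n = 3), above MPK1 at 4.67 ± 0.613, MPK2 at 2.93 ± 0.628 and MPK14 at 1.65 ± 0.391. In dry mpk7_ko3 it still stood at 7.99 ± 0.247 CPM per kilobase (SD, n = 3), while the highest MPK1 library reached 6.36.

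Of 16 measured genes elsewhere in MAPK cascades, MPK6 alone rose. MPK6, a group A MAPK with many roles in stress and development, was at 65.3, 70.5 and 67.2 CPM in Col-0 and 81.0, 81.3 and 92.1 CPM in mpk7_ko3. The mutant libraries were all higher, by a log2 fold change of 0.33 (adjusted p = 0.0157). The call was lost without Col-0 replicate 3 or without mpk7_ko3 replicate 3, where the highest adjusted p was 0.0778.

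**Figure D2:**
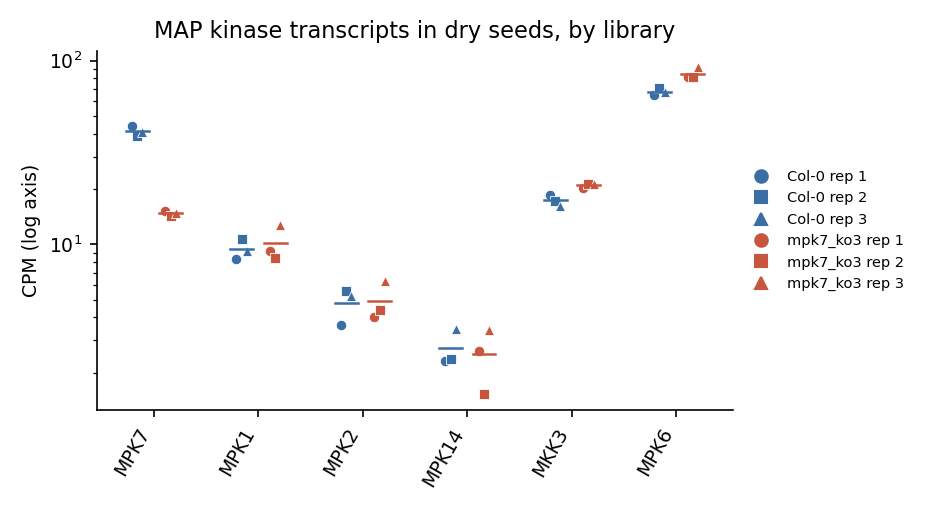
CPM of 6 MAP kinase genes (log axis) in the 3 Col-0 (blue) and 3 mpk7_ko3 (red) dry libraries, with a bar at each group mean and a symbol shape for each replicate number. MPK7 falls from between 38.7 and 44.2 CPM to between 14.3 and 15.2 CPM, and the values of MPK1, MPK2 and MPK14 overlap between the groups.

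The largest group of transcripts to fall in dry mpk7_ko3 encoded ribosomal proteins, the protein parts of the ribosome. In a list of 24 cytosolic ribosomal protein genes, 19 fell and none rose, while 2.11% of all genes tested fell. The median log2 fold change was -0.42 against 1.75e-05 for all genes tested. RPS8A (AT5G20290), a protein of the small subunit, was at 304, 349 and 322 CPM in Col-0 and 215, 215 and 197 CPM in mpk7_ko3. RPL18C (AT5G27850), of the large subunit, was at 154, 181 and 170 CPM in Col-0 and 113, 112 and 92.5 CPM in mpk7_ko3. RPS10B, of the small subunit, was at 92.0, 123 and 116 CPM in Col-0 and 76.9, 69.4 and 66.9 CPM in mpk7_ko3. All 3 genes were lower in every mutant library than in any Col-0 library. Their log2 fold changes were -0.64 ± 0.08 (SE; adjusted p = 0.000145), -0.67 ± 0.09 (SE; adjusted p = 0.000362) and -0.63 ± 0.09 (SE; adjusted p = 0.00082), and each passed without any 1 of the 6 libraries. EMB2296, which encodes RPL8A of the large subunit, fell by 0.56 on the log2 scale (adjusted p = 0.00414). Without replicate 3 of mpk7_ko3 in dry and imbibed seeds, 14 of the 24 fell, with a median of -0.35.

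The 250 bases before the annotated start of these 3 genes are shown because ribosomal protein genes of plants share short promoter elements, and RPS8A, RPL18C and RPS10B are the 3 with the largest changes among the list's genes past the threshold. The sequences were read from the RefSeq TAIR10.1 genome, on which the start and end of 32532 of 32548 nuclear genes are those of the deposited table. They run 5′ to 3′ on the strand of the gene, and capitals mark site II elements, TGGGCC or TGGGCT on either strand. Overlapping matches were joined into 1 run of capitals. The windows lie at chr5:6853107-6853356 on the minus strand, chr5:9872817-9873066 on the plus strand and chr5:16610693-16610942 on the minus strand.
RPS8A: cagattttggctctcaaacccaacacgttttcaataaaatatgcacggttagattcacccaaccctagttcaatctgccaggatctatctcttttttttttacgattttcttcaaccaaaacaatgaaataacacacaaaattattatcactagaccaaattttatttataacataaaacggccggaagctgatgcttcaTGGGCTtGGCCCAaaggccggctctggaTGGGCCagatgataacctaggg
RPL18C: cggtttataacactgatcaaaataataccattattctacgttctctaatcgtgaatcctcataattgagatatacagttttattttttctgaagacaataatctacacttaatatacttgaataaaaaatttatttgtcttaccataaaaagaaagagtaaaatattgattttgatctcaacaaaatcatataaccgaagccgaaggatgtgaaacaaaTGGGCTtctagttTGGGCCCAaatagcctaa
RPS10B: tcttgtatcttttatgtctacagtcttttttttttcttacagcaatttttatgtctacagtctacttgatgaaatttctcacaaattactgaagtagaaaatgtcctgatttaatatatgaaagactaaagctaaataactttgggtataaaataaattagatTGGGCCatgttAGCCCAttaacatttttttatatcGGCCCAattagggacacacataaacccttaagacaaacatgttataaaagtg
Each window holds 3 site II matches and no telo box (AAACCCTA on either strand). This search was added after the values were seen and is a description only. Site II matches occurred in 24.1% of the 17640 windows of genes tested and in 56.5% of the 324 windows of genes whose product names a ribosomal protein. They were in 67.2% of the 116 such windows whose gene fell and in 50.2% of the 207 whose gene did not pass. Among other genes, which by product name include RPS10B, the share was 35.3% of 258 that fell and 18.3% of 115 that rose. Telo boxes were in 4.1% of all windows, 20.7% of those of ribosomal protein genes that fell and 12.1% of those that did not pass.

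The same direction held across a wider class, which was drawn up after the values were seen and is therefore only described. The class was drawn by product name and misses RPS10B and the ubiquitin fusion gene UBQ1, which are counted among the other genes. Of 324 genes whose product names a ribosomal protein, 116 fell and 1 rose, a share of falls of 35.8% against 1.49% of the 17434 other genes. Their median log2 fold change was -0.30, and 280 of the 324 lay below zero. These 116 genes made up 30.9% of all falls. Without replicate 3 of mpk7_ko3 in both states, 87 fell, with a median of -0.25. Without dry Col-0 replicate 2, 57 fell. Among the 27 whose product names an organelle 3 fell, and among the 297 others 113 fell. Among the genes averaging at least 5 CPM whose groups did not overlap, the largest falls were those of PSRP5, a plastid ribosomal protein (log2 fold change -1.19, adjusted p = 0.0159), and AT2G25210, of the L39 family (log2 fold change -1.06, adjusted p = 0.000882). PSRP5 missed the threshold without Col-0 replicate 2 (adjusted p = 0.0881), and AT2G25210 passed without any 1 library.

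By library, the median deviation of the 324 genes from their mean over the 6 libraries was 0.0551, 0.228 and 0.184 log2 units in Col-0. In mpk7_ko3 it was -0.0775, -0.141 and -0.25. Every Col-0 library was above every mutant library, with Col-0 replicate 1 and mpk7_ko3 replicate 1 nearest to each other. Together these transcripts took 21486, 24229 and 23240 CPM in Col-0 and 19275, 18259 and 16861 CPM in mpk7_ko3. Many ribosomal protein genes are short, so the counts are also given by length. The 3341 other genes of the shortest of 5 length classes had median deviations of 0.0635, 0.0403 and 0.0183 in Col-0 and 0.0585, -0.0837 and -0.0534 in mpk7_ko3, which overlapped. Among genes of the shortest of 5 length classes, up to 1136 bases, 37.9% of 214 ribosomal protein genes and 2.84% of 3341 other genes fell. Among longer genes the shares were 31.8% of 110 and 1.16% of 14093. With a length and GC trend removed from each library, 90 ribosomal protein genes fell, with a median of -0.21.

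**Figure D3:**
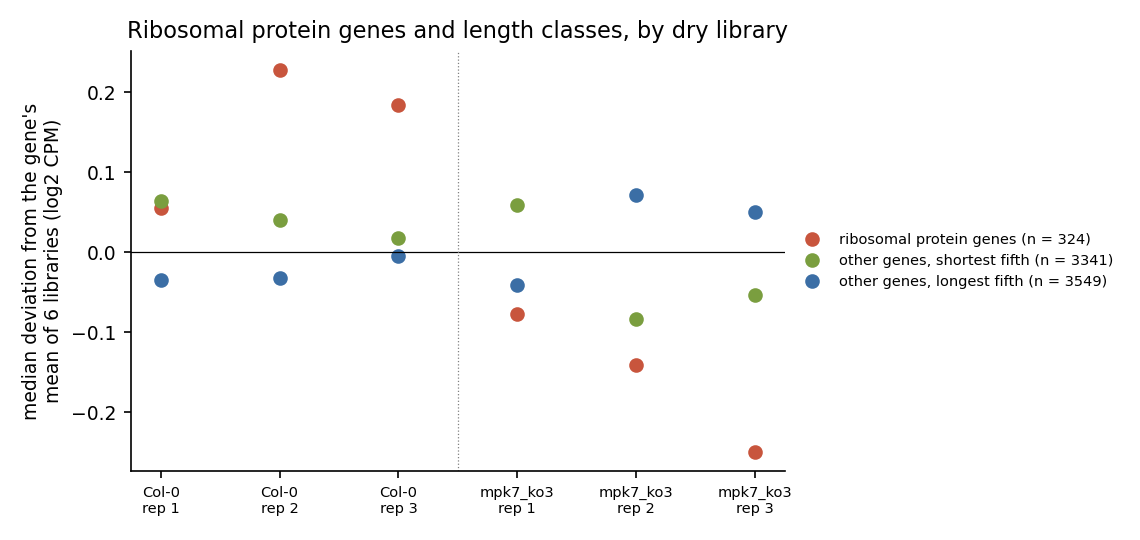
Median deviation of a gene class from each gene's mean over the 6 dry libraries (log2 CPM, vertical) in each library (horizontal), for 324 ribosomal protein genes, 3341 other genes of the shortest of 5 length classes and 3549 of the longest. Ribosomal protein genes lie between 0.0551 and 0.228 in Col-0 and between -0.25 and -0.0775 in mpk7_ko3, while the short genes lie between -0.0837 and 0.0635.

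The single ribosomal protein gene that rose was AT4G29390, 1 copy of RPS30. It was at 2.06, 3.08 and 1.80 CPM in Col-0 and 3.31, 6.53 and 6.64 CPM in mpk7_ko3 (log2 fold change 1.24, adjusted p = 0.0104). Its copy AT5G56670 was at 44.8, 48.6 and 51.3 CPM in Col-0 and 37.02, 32.9 and 21.95 CPM in mpk7_ko3 (log2 fold change -0.66, adjusted p = 0.0208). How reads shared by near-identical copies were counted is not given in the sources used here, so the split between such copies is uncertain.

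Other parts of the translation machinery fell too. In a list of 17 translation factors and associated proteins, made after the values were seen and only described, 11 fell and none rose. These were 64.7% of the list, against 2.11% of all genes tested, and the median log2 fold change was -0.39. AT5G60390, a copy of the elongation factor eEF1A that brings aminoacyl-tRNA to the ribosome, was at 952, 1147 and 1082 CPM in Col-0 and 784, 832 and 824 CPM in mpk7_ko3. Its log2 fold change was -0.38 (adjusted p = 0.0151), with no overlap. EIF4A1, a helicase of translation initiation, was at 394, 490 and 451 CPM in Col-0 and 336, 342 and 340 CPM in mpk7_ko3. All Col-0 libraries were higher, for a log2 fold change of -0.39 (adjusted p = 0.01). TCTP, a growth-related protein, fell by 0.50 on the log2 scale (adjusted p = 0.0111) and ATARCA, the ribosome-bound scaffold RACK1A, by 0.48 (adjusted p = 0.00466). UBQ1, which encodes ubiquitin fused to a ribosomal protein, fell by 0.58 (adjusted p = 0.000425). Without Col-0 replicate 2 the adjusted p was at most 0.115 for AT5G60390, EIF4A1 and TCTP, all of which then missed the threshold. Without Col-0 replicate 3 AT5G60390 missed it, and without mpk7_ko3 replicate 2 TCTP did.

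Of 12 ribosome biogenesis genes, 2 fell and none rose, with a list median of -0.11. FIB2, a fibrillarin that methylates ribosomal RNA, was at 48.1, 69.0 and 67.0 CPM in Col-0 and 35.8, 40.8 and 38.3 CPM in mpk7_ko3. The lowest Col-0 library was above the highest mutant library, and the log2 fold change was -0.68 ± 0.12 (SE; adjusted p = 0.00313). NAP57, the pseudouridine synthase dyskerin, fell by 0.35 on the log2 scale (adjusted p = 0.0478), a call that held only without Col-0 replicate 1 when 1 library was left out.

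Counts on a stretch of ribosomal DNA near the start of chromosome 2 were also lower. AT2G01010, annotated as 18S ribosomal RNA at chr2:3706-5513, was at 98.0, 113 and 88.0 CPM in Col-0 and 27.99, 45.3 and 29.01 CPM in mpk7_ko3. The groups stood well apart, with a log2 fold change of -1.55 ± 0.21 (SE; adjusted p = 0.000425). Its neighbours AT2G01008 (chr2:1025-3173) and AT2G01021 (chr2:6571-6672) fell by 1.7 (adjusted p = 1.29e-05) and 2.07 (adjusted p = 0.0446) on the log2 scale. AT2G01021 passed only without Col-0 replicate 1 when 1 library was left out. The 4 entries annotated as ribosomal RNA together took 0.844 to 1.41% of counts in Col-0 and 0.501 to 0.654% in mpk7_ko3. AT2G01010 held only a small part of these counts, and the share as a whole was not tested. The share was low in all 18 libraries, at 0.169 to 1.41%, and varied within dry Col-0, at 0.844, 1.41 and 0.896%. Shares this low may depend on library preparation, which was not tested, so these counts are not read as ribosomal RNA levels in the seed. How reads from the many repeats of this locus were assigned is not given in the sources used here, so the split between these entries is uncertain.

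Small heat shock proteins, chaperones that hold unfolding proteins and that seeds build up in maturation, were higher in dry mpk7_ko3 for some members. Of 12 measured, 3 rose and none fell, with a median log2 fold change of 0.30, while 0.653% of all genes tested rose. HSP21, the plastid member, was at 27.6, 28.8 and 24.4 CPM in Col-0 and 44.2, 37.9 and 105 CPM in mpk7_ko3. Replicate 3 of the mutant was far above its sister libraries, although all 3 were above Col-0. The log2 fold change was 1.21 (adjusted p = 0.0203) and became 0.61 (adjusted p = 0.123) without that library. ATHSP22.0, of the endoplasmic reticulum, showed the same library pattern, at 128, 150 and 129 CPM in Col-0 and 177, 171 and 315 CPM in mpk7_ko3. Its log2 fold change of 0.70 (adjusted p = 0.0316) became 0.36 (adjusted p = 0.151) without mpk7_ko3 replicate 3. AT2G29500, a cytosolic member, rose by 0.48 (adjusted p = 0.0174), and by 0.31 (adjusted p = 0.0902) without that library. All 3 calls were also lost without Col-0 replicate 2 or Col-0 replicate 3, and that of ATHSP22.0 without Col-0 replicate 1. Without replicate 3 of mpk7_ko3 in both states, 1 of the 12 rose, with a median of 0.23.

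Among 12 large chaperones and heat shock factors 2 rose and none fell. HSFA9, the heat shock factor specific to seed maturation, was at 404, 323 and 368 CPM in Col-0 and 486, 509 and 505 CPM in mpk7_ko3. Mutant libraries agreed closely and lay above all Col-0 libraries, by a log2 fold change of 0.45 (adjusted p = 0.0226, and 0.0522 without mpk7_ko3 replicate 3). HSP90.1, a cytosolic chaperone, was at 1584, 1565 and 1402 CPM in Col-0 and 1797, 2008 and 2329 CPM in mpk7_ko3 (log2 fold change 0.43, adjusted p = 0.0406, and 0.146 without mpk7_ko3 replicate 3). Both were lost as well without Col-0 replicate 2, Col-0 replicate 3 or mpk7_ko3 replicate 2. AT1G52560, a further HSP20-like chaperone outside the list, rose by 0.60 ± 0.12 (SE; adjusted p = 0.00766) and held without mpk7_ko3 replicate 3 (adjusted p = 0.0455), but not without Col-0 replicate 2 or 3, where the highest adjusted p was 0.0532.

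Of the seed maturation regulators, FUS3 rose. FUS3, a B3-domain factor that drives embryo maturation, was at 24.8, 19.5 and 22.9 CPM in Col-0 and 35.8, 36.5 and 38.5 CPM in mpk7_ko3. The mutant libraries were tightly grouped and about level with each other, all above Col-0, with a log2 fold change of 0.72 ± 0.17 (SE; adjusted p = 0.0199). It was the 1 of 7 SnRK2 kinases and maturation factors that passed. The adjusted p was 0.0523 without mpk7_ko3 replicate 3, and the call was lost also without mpk7_ko3 replicate 2 or Col-0 replicate 2 or 3 (highest adjusted p = 0.133). ABI3, a related factor, was at 239, 197 and 223 CPM in Col-0 and 208, 207 and 188 CPM in mpk7_ko3 (adjusted p = 0.417), with overlap.

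Gibberellin promotes germination, and the DELLA proteins repress its responses. Of 9 measured gibberellin signalling genes 2 fell, both encoding DELLA proteins, while 2.11% of all genes tested fell. RGL2, the DELLA best known for holding back germination, was at 25.1, 27.8 and 29.8 CPM in Col-0 and 17.9, 16.7 and 18.7 CPM in mpk7_ko3. GAI was at 37.6, 36.1 and 42.4 CPM in Col-0 and 29.99, 29.3 and 21.7 CPM in mpk7_ko3. Neither gene's groups overlapped, and the log2 fold changes were -0.63 ± 0.14 (SE; adjusted p = 0.015) for RGL2 and -0.52 ± 0.11 (SE; adjusted p = 0.00886) for GAI. The DELLA gene RGA had a log2 fold change of -0.44 (adjusted p = 0.0793). Without mpk7_ko3 replicate 3 both calls held (adjusted p = 0.0346 and 0.0455). RGL2 missed the threshold without Col-0 replicate 2, Col-0 replicate 3 or mpk7_ko3 replicate 2 (highest adjusted p = 0.0697), and GAI without Col-0 replicate 3 (adjusted p = 0.0567).

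GA20OX3, which makes a gibberellin precursor, was the 1 of 10 biosynthesis genes that fell, at 7.88, 10.6 and 10.7 CPM in Col-0 and 5.24, 6.26 and 4.43 CPM in mpk7_ko3. Its log2 fold change was -0.88 ± 0.18 (SE; adjusted p = 0.01), and it missed the threshold without Col-0 replicate 2, Col-0 replicate 3 or mpk7_ko3 replicate 3 (highest adjusted p = 0.071). GA3OX1 and GA3OX2, which carry out the final activating step, had no count in any of the 6 libraries, which allows a level of up to 0.178 to 0.207 CPM per library for each gene.

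DOG1, the main quantitative regulator of dormancy, was at 70.6, 41.0 and 50.1 CPM in dry Col-0 and 69.2, 66.4 and 55.0 CPM in dry mpk7_ko3. The highest value of all was a Col-0 library, and the groups overlapped (log2 fold change 0.24, adjusted p = 0.445). In imbibed seeds DOG1 was higher in mpk7_ko3, by 0.92 on the log2 scale (adjusted p = 0.00121). RVE2, a MYB-like factor, was the 1 of 17 dormancy regulators that rose, by 0.25 (adjusted p = 0.0469), a call that held only without mpk7_ko3 replicate 1 when 1 library was left out. Of 4 measured DOG1-like genes, a set made after the values were seen, DOGL3 (AT4G18690) fell by 0.84 (adjusted p = 0.00249) and DOGL2 (AT4G18660) by 0.42 (adjusted p = 0.0184). Without replicate 3 of mpk7_ko3 in both states, 1 of the 4 fell, and their median moved from -0.22 to -0.13. ERF4, an ethylene response repressor, had a log2 fold change of -0.51 (adjusted p = 0.187), and the abscisic acid genes NCED9, NCED6 and CYP707A2 had adjusted p-values of 0.198, 0.696 and 0.901.

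Cell wall loosening genes were few in counts in dry seeds. EXPA3 (EXP3 in the table), an expansin that loosens cell walls, was at 4.73, 7.05 and 5.84 CPM in Col-0 and 2.55, 3.13 and 2.81 CPM in mpk7_ko3. It was lower in all mutant libraries, by -1.06 ± 0.19 on the log2 scale (SE; adjusted p = 0.00466). The call held without any 1 library (highest adjusted p = 0.0466) but not in the fit of only the 6 libraries (adjusted p = 0.0775). EXPA3 was the 1 of 9 measured alpha-expansins that passed. EXPA1 had 4, 25 and 2 counts in Col-0 and 12, 4 and 1 in mpk7_ko3, and EXPA2 had 9, 39 and 16 in Col-0 and 7, 0 and 0 in mpk7_ko3. Neither passed (adjusted p = 0.782 and 0.307). DGR2, a DUF642 cell wall protein, was at 7.81, 12.5 and 9.57 CPM in Col-0 and 3.86, 5.53 and 1.56 CPM in mpk7_ko3. Its values did not overlap (log2 fold change -1.48, adjusted p = 0.0113), though it missed the threshold without Col-0 replicate 2 or mpk7_ko3 replicate 3, where the highest adjusted p was 0.0951.

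Some genes of sterol and brassinosteroid synthesis were lower. DWF1, a sterol reductase on the route to brassinosteroids, was at 9.93, 15.5 and 11.7 CPM in Col-0 and 5.45, 5.197 and 4.90 CPM in mpk7_ko3. The Col-0 libraries varied and the mutant libraries did not exceed the lowest of them, for a log2 fold change of -1.26 ± 0.21 (SE; adjusted p = 0.00181). In a list of 16 such genes made after the values were seen, and therefore only described, 4 fell and none rose. These were 25% of the list, against 2.11% of all genes tested, and the list median was -0.27. Besides DWF1 they were CPD (-0.88, adjusted p = 0.00728), HYD1 (-0.49, adjusted p = 0.0442) and CAS1 (-0.47, adjusted p = 0.0125). Without replicate 3 of mpk7_ko3 in both states, 3 of the 16 fell.

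HSD1, a steroleosin of oil bodies, was the 1 of 15 storage and oil body genes that fell. It was at 325, 152 and 196 CPM in Col-0 and 116, 85.2 and 44.9 CPM in mpk7_ko3. All mutant libraries were below all Col-0 libraries, and within each group the values spread widely (log2 fold change -1.45 ± 0.28, SE; adjusted p = 0.00566). HSD1 has near-identical copies, so its value is uncertain. The list median was -0.16, and 0.01 without replicate 3 of mpk7_ko3 in both states. GSTU7, a glutathione transferase, was at 7.74, 10.14 and 8.99 CPM in Col-0 and 4.14, 3.20 and 2.27 CPM in mpk7_ko3 (log2 fold change -1.49 ± 0.22, SE; adjusted p = 0.000608). Serine carboxypeptidase-like gene scpl35 was at 28.4, 35.9 and 27.7 CPM in Col-0 and 12.5, 16.3 and 15.01 CPM in mpk7_ko3. It fell by 1.07 on the log2 scale (adjusted p = 7.17e-06). LCR69, a defensin-like peptide, fell by 1.21 (adjusted p = 0.00467). All 4 genes passed without any 1 library, and their groups did not overlap. In the fit of only the 6 libraries HSD1 missed the threshold (adjusted p = 0.0861). SDH8, a subunit of mitochondrial succinate dehydrogenase, fell by 1.07 (adjusted p = 0.0142) and missed the threshold without mpk7_ko3 replicate 2 or 3 (highest adjusted p = 0.0721).

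Among the remaining rises, DEL2, an atypical E2F factor that acts on cell cycle genes, was at 9.59, 11.4 and 13.5 CPM in Col-0 and 22.2, 21.9 and 23.57 CPM in mpk7_ko3. The mutant libraries were nearly equal and far above Col-0, with a log2 fold change of 0.97 ± 0.13 (SE; adjusted p = 0.000425), and the call held without any 1 library. None of 9 measured cell cycle and DNA replication genes passed. ELIP1, a light-stress protein of the plastid, was at 56.4, 40.7 and 30.05 CPM in Col-0 and 83.9, 77.2 and 73.9 CPM in mpk7_ko3 (log2 fold change 0.89, adjusted p = 0.035). It passed only without Col-0 replicate 1 when 1 library was left out. Of 9 sulfate assimilation genes, the transporter SULTR1;2 rose by 0.41 (adjusted p = 0.0387) and the reductase APR2 by 0.37 (adjusted p = 0.0481). Both were lost without mpk7_ko3 replicate 3, with adjusted p-values of 0.121 and 0.153, and without Col-0 replicate 2 or 3. PTR5, a peptide transporter, rose by 0.93 (adjusted p = 0.0314, and 0.129 without mpk7_ko3 replicate 3) and missed the threshold without any 1 Col-0 library as well. A pair of further abundant transcripts moved in opposite directions. DAA1, an AAA-type ATPase, was at 782, 741 and 749 CPM in Col-0 and 909, 960 and 942 CPM in mpk7_ko3 (log2 fold change 0.31, adjusted p = 0.0189, and 0.0507 without mpk7_ko3 replicate 3). PDF2.1, a plant defensin, was at 1812, 1749 and 1629 CPM in Col-0 and 1497, 1158 and 1109 CPM in mpk7_ko3 (log2 fold change -0.46, adjusted p = 0.0389, and 0.13 without mpk7_ko3 replicate 3). Without Col-0 replicate 2 or 3 or mpk7_ko3 replicate 2 neither passed.

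**Figure D4:**
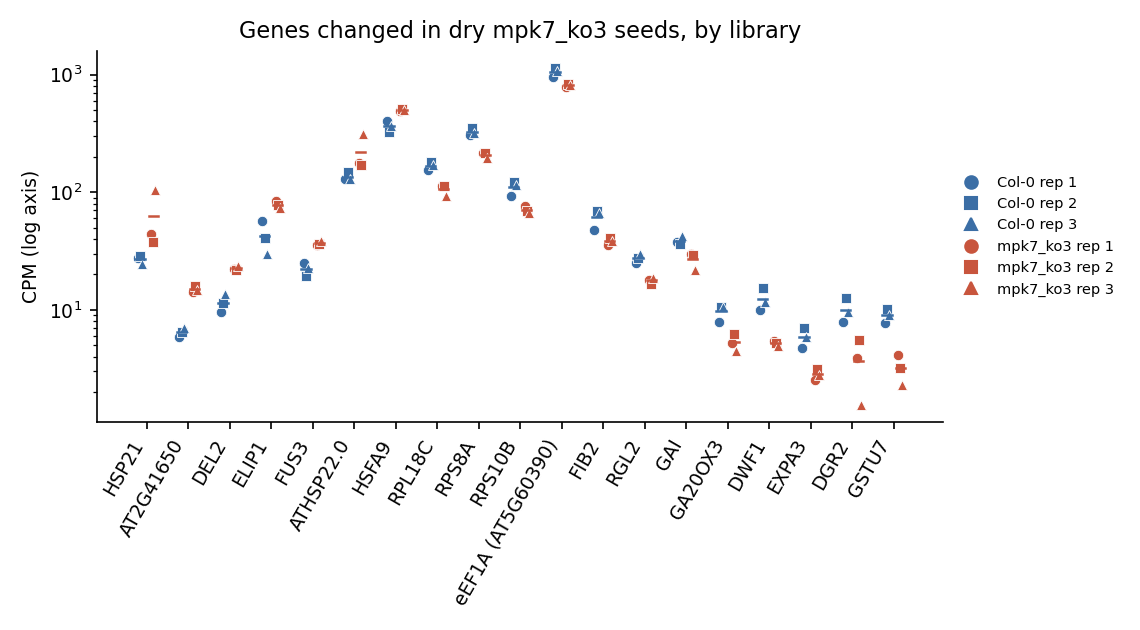
CPM (log axis) of 19 genes that changed, in the 3 Col-0 (blue) and 3 mpk7_ko3 (red) dry libraries, with a bar at each group mean. No gene shown has overlapping groups, and mpk7_ko3 replicate 3 (triangle) stands far above its sister libraries for HSP21, at 105 CPM, and for ATHSP22.0, at 315 CPM.

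Several loci were singled out after their values were seen, 3 of them with hardly a count in 1 of the groups. AT4G10613, annotated as related to reverse transcriptases at chr4:6560363-6561726, had 24, 36 and 17 counts in Col-0 and 1, 0 and 0 in mpk7_ko3. Its neighbour CID12 (chr4:6556982-6559602), which encodes a protein with a poly(A)-binding protein interaction motif, was at 213, 246 and 228 CPM in Col-0 and 117, 118 and 116 CPM in mpk7_ko3. CID12 fell by 0.97 on the log2 scale (adjusted p = 9.81e-08), with all mutant libraries close together. AT3G42148 (chr3:14308062-14308169) had no count in Col-0 and 13, 4 and 2 counts in mpk7_ko3, and AT1G75945 (chr1:28515245-28515916) had 0, 2 and 3 counts in Col-0 and 20, 52 and 10 in mpk7_ko3. The dry mkk3-1 libraries had 1, 0 and 0 counts on AT4G10613, 10, 16 and 18 on AT3G42148 and 107, 110 and 71 on AT1G75945, and CID12 stood at 128 ± 7.13 CPM (SD, n = 3) there. Any comparison of these mkk3-1 values with Col-0 uses the same Col-0 libraries.

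Lists in which no measured gene passed covered abscisic acid biosynthesis (9 genes), catabolism (3), receptors (9) and PP2C phosphatases (9), and gibberellin inactivation (3). They also covered the ethylene pathway (20), LEA proteins and dehydrins (16), lipid mobilisation (17), jasmonate (18), rapid stress response (10), the circadian clock (14) and nitrate response (10). The same was found for metal transport (6), reactive oxygen (9), galactinol synthesis (4), flavonoids (7) and defence (4). With 2.76% of all genes called, lists of this size would hold few calls at the background share. Their medians ranged from -0.25 for gibberellin inactivation to 0.13 for nitrate response.

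Markers of seed tissues were compared to see whether tissue content moved with genotype. The 6 measured seed coat markers summed to 337 to 364 CPM in Col-0 and 256 to 278 CPM in mpk7_ko3, a difference carried by 1 gene, ARA12, a subtilisin-like protease of seed coat mucilage that fell by 0.43 (adjusted p = 0.0415). ARA12 missed the threshold without any 1 of the 6 libraries (highest adjusted p = 0.16). The other measured seed coat markers, among them PER36 and MUM4, did not pass. Endosperm markers summed to 17523 to 24103 CPM in Col-0 and 18023 to 18996 CPM in mpk7_ko3, nearly all from EPR1, while PHE1, IKU2 and MINI3 had no count in either group. Green tissue markers summed to 201 to 230 CPM in Col-0 and 176 to 227 CPM in mpk7_ko3. None of the 3 endosperm or 8 green tissue markers measured passed.

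Changed genes were spread over the 5 nuclear chromosomes, with 1.78 to 2.48% of tested genes falling and 0.488 to 0.781% rising on each. Around MPK7 itself, none of 11 tested genes within 50 kb changed, and 2 of 76 within 250 kb and 6 of 292 within 1000 kb did. The nearest was EMB2296, 69.3 kb away. Shorter genes fell more often, from 4.95% of the shortest to 0.648% of the longest of 5 length classes, while the share of rises was 0.759% and 0.733%. Abundant genes were called more often, with 4.11% falling and 1.41% rising in the most abundant of 5 classes against 0.366% and 0.169% in the least abundant. Genes of the plastid genome had a median log2 fold change of -0.86 and 1 of 67 changed, and mitochondrial genes one of -0.31 and 0 of 50 changed.

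The same genotypes were compared after 6 h of imbibition. The imbibed libraries entered no dry group mean, but both comparisons came from 1 fit with a shared estimate of the spread, so their calls are not independent. Whether dry and imbibed libraries of a genotype came from the same seeds is not stated in the labels used here. Deviations of same-numbered dry and imbibed libraries from their group means correlated at 0.0435 to 0.278 in mpk7_ko3 and 0.0479 to 0.0984 in Col-0. Calls and signs shared between the states are therefore no independent support. Leaving out 1 imbibed Col-0 library gave 410 to 425 dry calls. In imbibed seeds, with all libraries in the fit, 1748 genes (9.84%) differed, 909 higher (5.12%) and 839 lower (4.72%) in mpk7_ko3. Of the dry calls, 312 were called in the same direction in imbibed seeds, which is 63.54% of the dry list and 17.85% of the imbibed list, and 3 in the opposite direction. The sign was shared for 476 of the 491 (96.95%), against 65.9% of all genes tested. The library values of the imbibed groups did not overlap for 31% of all genes tested. Among the 324 ribosomal protein genes 193 fell and none rose in imbibed mpk7_ko3, with a median of -0.35, and 9 of the 12 small heat shock protein genes rose, with a median of 0.91. HSP21 rose there by 2.28 on the log2 scale (adjusted p = 0.000223) and FUS3 by 0.92 (adjusted p = 0.0022), while RGL2 and GAI fell by 0.43 (adjusted p = 0.0253) and 0.37 (adjusted p = 0.0163). EXPA3 (EXP3) fell by 1.00 (adjusted p = 0.000146).

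A test of the difference between the states, the interaction of genotype and imbibition, called 1 gene of 17758 (0.00563%). At an unadjusted p below 0.05 it held 1361. AT2G41650, which encodes an uncharacterized protein at chr2:17362645-17364518, was at 5.82, 6.52 and 6.998 CPM in dry Col-0 and 14.1, 15.9 and 14.8 CPM in dry mpk7_ko3. After imbibition it was at 47.1, 44.2 and 46.2 CPM in Col-0 and 24.0, 30.7 and 26.3 CPM in mpk7_ko3. The mutant was thus higher in all dry libraries and lower in all imbibed libraries, with log2 fold changes of 1.21 ± 0.11 (SE; adjusted p = 5.21e-06) and -0.76 ± 0.09 (SE; adjusted p = 4.21e-05). The interaction was -1.98 ± 0.15 on the log2 scale (SE; adjusted p = 2.14e-07). In mkk3-1 it was at 6.36 ± 0.667 CPM (SD, n = 3) in dry and 27.1 ± 1.17 CPM (SD, n = 3) in imbibed seeds.

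**Figure D5:**
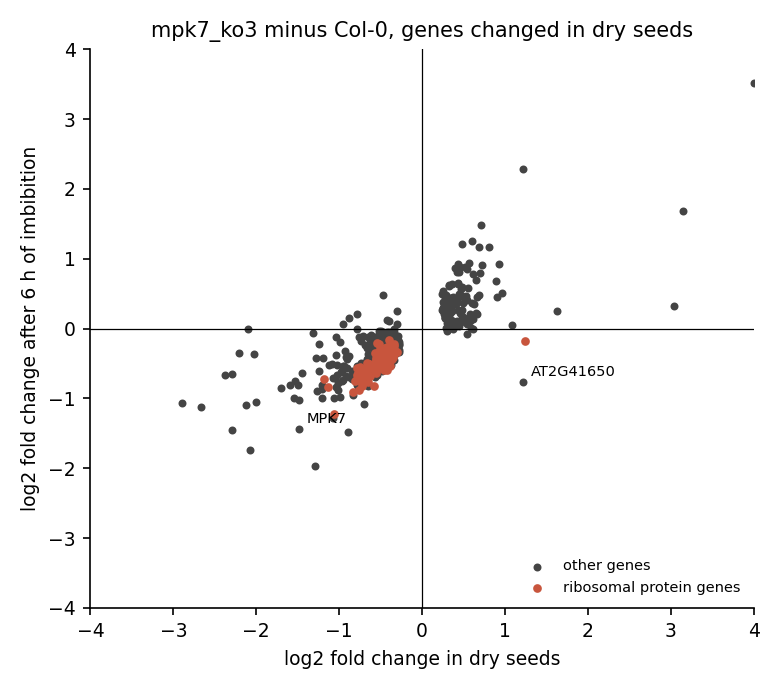
Log2 fold change of mpk7_ko3 over Col-0 in dry seeds (horizontal) and after 6 h of imbibition (vertical) for the 491 genes changed in dry seeds, with ribosomal protein genes in red and 5 genes beyond the plotted range of 4 log2 units. Of the 491 genes 476 keep their sign, and AT2G41650 lies at 1.21 in dry and -0.76 in imbibed seeds.

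Dry mpk7_ko3 was also tested directly against dry mkk3-1, since both mutants' comparisons with Col-0 share the Col-0 libraries. This test called 215 genes (1.21%), 79 higher (0.445%) and 136 lower (0.766%) in mpk7_ko3. Of the 491 genes above, 52 passed it, among them 42 falls that were lower and 9 rises that were higher in mpk7_ko3 than in mkk3-1. The 491 were selected with the same 3 dry mpk7_ko3 libraries that enter this test. The shared direction is therefore in part built in and is no independent support. MPK7 was at 38.3 ± 1.47 CPM (SD, n = 3) in dry mkk3-1, and lower in mpk7_ko3 by -1.38 on the log2 scale (adjusted p = 1.30e-08). AT2G41650 was higher in mpk7_ko3 by 1.23 (adjusted p = 1.26e-06), and GSTU7 was lower by -1.41 (adjusted p = 0.00231). The 18S gene AT2G01010, at 113 ± 17.3 CPM in mkk3-1 (SD, n = 3), was lower in mpk7_ko3 by -1.73 (adjusted p = 0.000135). DWF1, HSD1, LCR69, SDH8, EIF4A1, NAP57 and RPS10B also passed this test, with adjusted p-values from 0.0396 to 0.0497, close to the threshold. The count of 215 depended on the setting. It was 28 at an adjusted p below 0.01, 29 with only the libraries compared and 882 without dry mpk7_ko3 replicate 3. Values of single genes under those settings are not given for this test.

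For several other genes the direct test did not pass. Against dry mkk3-1, EXPA3 (EXP3) differed by 0.16 (adjusted p = 0.747), RGL2 by 0.16 (adjusted p = 0.6), GAI by -0.01 (adjusted p = 0.972), GA20OX3 by -0.13 (adjusted p = 0.774) and scpl35 by 0.27 (adjusted p = 0.224). A p that misses the threshold does not show equal levels. ATHSP22.0 stood at 418 ± 30.5 CPM in dry mkk3-1 (SD, n = 3) and was lower in mpk7_ko3 by -0.92 (adjusted p = 0.0144). HSP21 stood at 120 ± 14.7 CPM in mkk3-1 (SD, n = 3), and its difference of -0.94 had an adjusted p of 0.0773. Set beside each other, with the Col-0 libraries in common, the 324 ribosomal protein genes had 116 falls and a median of -0.30 in dry mpk7_ko3 and 40 falls and a median of -0.23 in dry mkk3-1. For the 12 small heat shock protein genes the values were 3 rises and a median of 0.30 in mpk7_ko3 and 7 rises and a median of 0.62 in mkk3-1. In the comparison of dry mkk3-1 with dry Col-0, 2.08% of all genes tested were called, 0.687% as higher and 1.4% as lower.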

How the data were processed

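Total RNA of seeds was sequenced as paired reads, and the table deposited by the authors gives unnormalized counts for each gene, made with fastp 0.20.0, HISAT2 2.1.0, featureCounts 2.0.1 and the TAIR10 build (DESeq2 1.34.0 is also named), per the submitters' processing notes. The strand setting and the treatment of reads that map to several places are not given in the sources used here, so overlapping genes, antisense genes and near-identical copies may share counts. Samples were grouped by genotype and state, 3 libraries in each of 6 groups. All 18 libraries were fitted together with edgeR 4.0.16 in R 4.3.3 (TMM scaling, filterByExpr with a minimum count of 10, quasi-likelihood test, two-sided, Benjamini-Hochberg adjustment over 17758 genes, 12 residual degrees of freedom). Genes were called at an adjusted p below 0.05, and DESeq2 1.42.0 was an alternative. The script was tested on simulated data. CPM use TMM-scaled totals, with a floor of 3 counts, and such floors cover counting error only. Replicates of 1 group differed by more than counting noise (chi-square per degree of freedom 7.98 to 33.2), so none was merged.

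Genes named were the MKK3 module and seed genes of known interest, the 15 largest rises and 15 largest falls among changed genes averaging 5 CPM or more whose groups did not overlap, the 10 most abundant changed genes, up to 4 changed members of each of 35 gene lists (up to 2 abundant ones where none changed) and the 10 changed genes nearest to MPK7. The comparison and the gene lists were chosen with earlier results of these data known. The ribosomal product class, the sterol, DOG1-like and translation lists and the promoter search were added after the values were seen. Alternatives covered scaling, filter, test, threshold, replicate block, length and GC trend, and left-out libraries. Leaving ribosomal genes out of the fit was chosen after seeing the data.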

Additional observations from a re-analysis of the deposited data

Results flagged for a closer look

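AT2G41650 was singled out because its mpk7_ko3 difference had opposite signs in dry and imbibed seeds and the test of that difference itself passed, at -1.98 on the log2 scale (adjusted p = 2.14e-07, edgeR). Under the alternatives the interaction ranged from -2.08 to -1.90, with adjusted p-values from 5.75e-28 to 1.36e-05.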

How the results depend on the processing

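The dry comparison called 491 genes. The alternatives gave 775 with DESeq2, 73 with only the 6 libraries, 167 at an adjusted p below 0.01, 57 with at least a 2-fold change and 146 to 575 with 1 library left out. Other scalings, no low-count filter, the length and GC trend removed, organelle genes left out or mpk7_ko3 replicate 3 left out in both states gave 423 to 607. A like count does not mean the same genes. With mpk7_ko3 replicate 3 left out in both states, 301 of the 486 genes called were among the 491. With ribosomal protein and ribosomal RNA genes left out of the fit, an alternative chosen after seeing the data, 268 of the other genes passed. In the main fit 259 genes outside the ribosomal protein class fell and 115 rose, so calls among the remaining genes also became fewer. The 116 ribosomal protein genes that fell became 36 with only the 6 libraries, 72 at an adjusted p below 0.01, 4 with at least a 2-fold change and 57 to 135 with 1 library left out. Of 65 named genes past the threshold, 65 kept their sign in every alternative, 32 passed without dry mpk7_ko3 replicate 3, 21 passed without each of the 6 libraries in turn and 19 passed in the fit of 6 libraries.

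The imbibed count of 1748 became 683 at an adjusted p below 0.01, 113 with at least a 2-fold change and 887 to 1386 with 1 library left out. Against dry mkk3-1 the count of 215 became 610 with DESeq2, 504 with no low-count filter, 29 with only the libraries compared, 1095 with mpk7_ko3 replicate 3 left out in both states, 339 with the length and GC trend removed, 28 at an adjusted p below 0.01, 46 with at least a 2-fold change and 33 to 882 with 1 library left out. The interaction count of 1 became 58 with DESeq2, 36 with no low-count filter, 7 with mpk7_ko3 replicate 3 left out in both states, 2 with the trend removed and 1 to 19 with 1 library left out. The causes of these shifts were not tested. The settings with fewer libraries also have fewer degrees of freedom.

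With the replicate number as a block, 455 genes passed in dry seeds, 1669 in imbibed seeds, 247 against dry mkk3-1 and 2 in the interaction, and 117 ribosomal protein genes fell. The numbers share no stated origin. Same-numbered dry libraries of Col-0 and mpk7_ko3 had deviations that correlated at 0.138, -0.108 and -0.0165, so they were not taken as pairs. Dry and imbibed libraries of the same number were at 0.0435, 0.203 and 0.278 in mpk7_ko3 and at 0.0984, 0.0691 and 0.0479 in Col-0. Those of different numbers ranged from -0.26 to 0.106 in mpk7_ko3 and from -0.0855 to 0.0147 in Col-0. Whether same-numbered libraries share an origin was not tested.

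Signs changed only for named genes far from the threshold. MPK1 was at -0.10 and MPK2 at -0.20 with mpk7_ko3 replicate 3 left out in both states. With 1 library left out, log2 fold changes ranged from -0.10 to 0.23 for MPK1, from -0.20 (and -0.13 without Col-0 replicate 1) to 0.15 for MPK2, from -2.02 to 0.87 for EXPA1, from -0.14 to 0.23 for CYP707A2 and from -0.39 to 0.15 for MPK14. At these depths the weakly counted expansins EXPA1 and EXPA2 rest on fewer than 40 counts per library.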
